A study of Mus musculus with 60 samples.

Results

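The livers of 5 male CC042/GeniUnc mice given an HF/HS diet (more fat, more sucrose) for 20 weeks were compared with those of 5 male mice of the same strain kept on the control diet for 60 weeks. These 10 libraries were chosen by sex, diet and weeks in the sample labels, out of 60 libraries of both sexes and diets at 20, 40 and 60 weeks. CC042/GeniUnc is an inbred strain of the Collaborative Cross, a panel bred from several founder strains. The labels name no engineered allele in any group. The HF/HS diet was rich in milk fat, cholesterol and sucrose, and the control diet matched its ingredients with less fat and less sucrose. The comparison set an early point of the diet against long life on the control diet. It therefore changed diet and duration at once, and their parts cannot be told apart from these 10 animals alone. Levels in male controls at 20 weeks and in males after 60 weeks of HF/HS diet are given beside the main results for this reason. Control animals were numbered 11 to 171 and HF/HS animals 261 to 413, and the sources used here give neither the age at the start of feeding nor what the numbers stand for.

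A fatty, sugary diet fills hepatocytes with triglyceride stored in lipid droplets, and dying or overloaded hepatocytes draw in monocytes that become macrophages with lipid-handling and matrix-degrading genes. Activated stellate cells then lay down collagen. Cholesterol from the diet lowers the liver's own synthesis, and a part of the sterol leaves the body as bile acids. Fasting turns on glucose output through gluconeogenic enzymes, and the circadian clock sets many of the same genes by the hour of the day.

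The 10 libraries held 13741001 to 16817203 counts, and 14180 of 24982 gene entries had enough counts to be tested. Xist reached at most 1.26 CPM (counts scaled by library size) and Uty, a Y-linked gene, was at 46.4 to 60.5 CPM in these male libraries. Alb, the main hepatocyte transcript, was at 8983 to 12724 CPM. The first principal component of the 10 libraries took 39.1% of the variance. It placed control animals 23 and 171 at one end (49.5 and 44.3) and HF/HS animals 413 and 411 at the other (-42.4 and -31.9). Control animals 22 and 23 held the most pancreatic transcripts. Values without these pairs are given for the genes and lists that turn on them most, since 69 of the named genes lost their call without animals 23 and 171, 52 without animals 411 and 413 and 45 without animals 22 and 23. No pair of libraries within a group was closer than sampling noise, so each counted as 1 replicate. Nothing in the labels says more about how independent the animals were. The p-values rest on a spread estimated over all 60 libraries, not over these 10 alone. Counts of calls from these 10 alone are given at the end.

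Of the 14180 genes, 1853 were higher (13.1%) and 2115 lower (14.9%) after 20 weeks of HF/HS diet than after 60 weeks of control diet, 28% in all, at an adjusted p under 0.05 (edgeR quasi-likelihood test with Benjamini-Hochberg adjustment over all genes). Most differences were small. At least 2-fold differences numbered 256 higher (1.81%) and 253 lower (1.78%), and 20 higher and 45 lower genes passed a test against a 1.5-fold change. The median log2 fold change of all genes was 0.01. The CPM ranges of the groups did not overlap, whatever the test, in 933 genes on the higher side (6.58%) and 1078 on the lower side (7.6%). In 1829 genes (12.9%) the ranges were separate and the gene was called. Without control animals 23 and 171, 817 genes were higher and 935 lower. Without HF/HS animals 411 and 413 the counts were 1200 and 1371.

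Of 20 genes of glucose metabolism, 12 were lower and 1 higher. Among markers of macrophages in general, 12 of 16 were higher and 0 lower, beside 17 of 36 matrix genes, 11 of 21 chemokines and cytokines, 12 of 30 cell cycle genes and 8 of 25 interferon response genes that were higher. Lower members made up 8 of 24 genes of cholesterol synthesis and uptake and 6 of 18 of one-carbon metabolism. No member of the acute phase list (24 genes), the endoplasmic reticulum stress list (16) or the nuclear genes of the respiratory chain (17) was called.

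**Figure D1:**
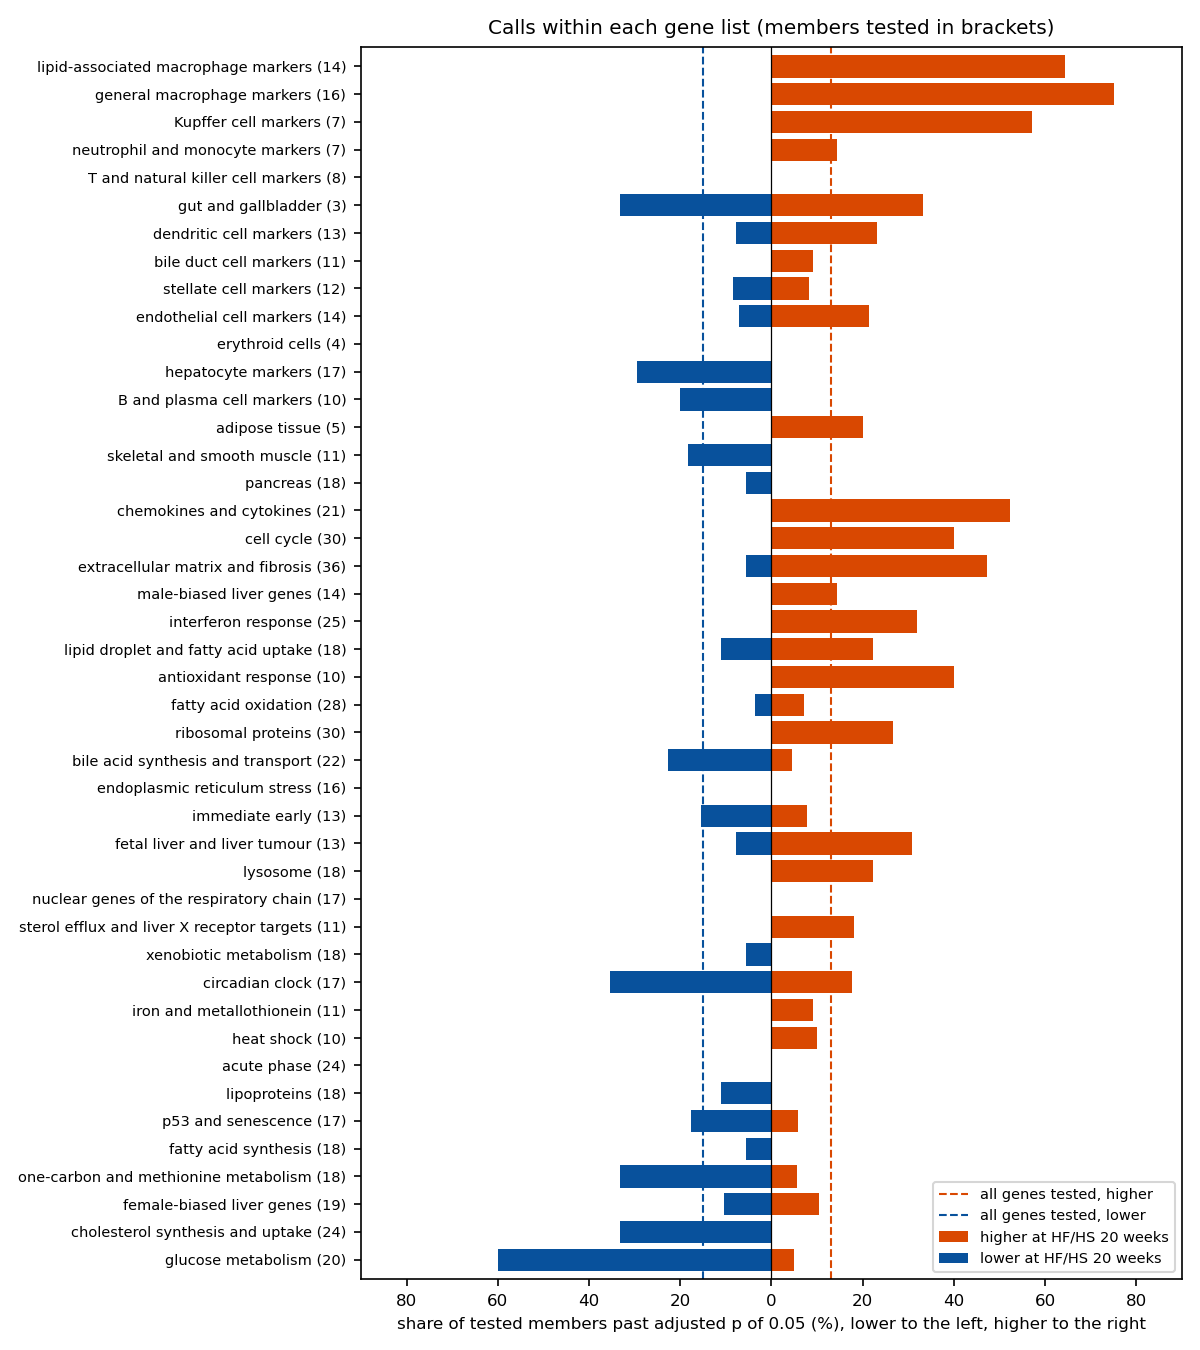
Share of tested members of each of 44 gene lists that passed an adjusted p of 0.05, lower at HF/HS 20 weeks to the left and higher to the right, in percent of the members tested. Dashed lines mark the shares over all genes tested (13.1% higher, 14.9% lower). Among lists of 5 or more genes, the 3 macrophage lists (12 of 16, 9 of 14 and 4 of 7 members) reach farthest to the right and glucose metabolism (12 of 20) farthest to the left.

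Macrophage genes were higher in the HF/HS livers than in the old controls across 3 marker lists. Gpnmb, a membrane glycoprotein of lipid-laden macrophages (chr6:49036546-49070929), was at 33.7, 34.4, 36.3, 25.3 and 34.1 CPM in the HF/HS animals. In the control animals 11, 21, 22, 23 and 171 it was at 11.5, 26.1, 12.4, 1.0 and 1.36 CPM. The groups overlapped by 1 control animal, and the controls fell into 3 animals with a high level and 2 with a low one. Its log2 fold change was 1.63 ± 0.44 (SE, adjusted p = 0.0045), and 0.98 (adjusted p = 0.10) without animals 23 and 171. In male controls at 20 weeks Gpnmb averaged 0.123 ± 0.0732 CPM (SD, n = 5), and after 60 weeks of HF/HS diet it ranged from 13.2 to 33.1 CPM.

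Mmp12, the macrophage elastase, showed the same order. It was at 34.7, 38.0, 28.4, 28.6 and 42.0 CPM in the HF/HS animals and at 12.4, 23.6, 11.0, 0.693 and 1.01 CPM in the controls. The groups did not overlap, and animals 23 and 171 were again far below the other controls. The log2 fold change was 1.80 ± 0.44 (adjusted p = 0.0019), and 1.14 (adjusted p = 0.051) without those 2 animals. Mmp13, a collagenase, was at 3.38 to 5.87 CPM against 0.231 to 2.36 CPM, with no overlap (1.80 ± 0.36, adjusted p = 0.00017), and this call held without them (1.25, adjusted p = 0.014). Ccl2, the chemokine that draws monocytes from the blood, was at 3.82 to 6.89 CPM against 0.231 to 2.58 CPM (1.86 ± 0.39, adjusted p = 0.00031). Its value without the pair was 1.32 (adjusted p = 0.022). Clec7a, a receptor for fungal glucans on myeloid cells, was at 22.4 to 38.5 CPM against 3.16 to 15.1 CPM (1.71 ± 0.32), and its value was 1.21 (adjusted p = 0.011) without the pair. Mmp12, Mmp13, Ccl2 and Clec7a were among the 12 highest genes, which were picked for separate ranges. Their lack of overlap is therefore no separate result.

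Mmp12 and Mmp13 lie near each other on chromosome 9, and the stretches before a start site of each are shown because these neighbours moved together. The sequences come from RefSeq (GRCm38.p6, the build named mm10) and read 5′ to 3′ up to the base before the start site. Capitals mark a match to TGACTCA, the site of AP-1, read on either strand. The Mmp12 stretch belongs to the second of its 2 listed starts (chr9:7347224-7347373, plus strand), and the Mmp13 stretch to its only one (chr9:7272364-7272513, plus strand).
Mmp12: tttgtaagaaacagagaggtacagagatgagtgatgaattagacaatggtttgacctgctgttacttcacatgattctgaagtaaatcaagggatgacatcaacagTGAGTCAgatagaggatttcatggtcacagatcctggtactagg
Mmp13: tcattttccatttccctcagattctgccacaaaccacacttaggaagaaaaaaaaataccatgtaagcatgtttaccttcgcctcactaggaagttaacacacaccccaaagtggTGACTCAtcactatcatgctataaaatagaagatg
The match begins 44 bases before the start site in Mmp12 and 35 bases before it in Mmp13. Of 32851 RefSeq promoters, 4.46% held this motif in the 250 bases before the start, so a match alone is a description of these windows.

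All but 4 of the general macrophage markers were higher. Cd68, a lysosomal protein of macrophages, was at 15.6, 16.4, 21.3, 15.2 and 19.1 CPM in the HF/HS animals and 10.1, 11.7, 10.1, 3.77 and 3.74 CPM in the controls, without overlap (1.14 ± 0.29, adjusted p = 0.0023). Without animals 23 and 171 its value was 0.72 (adjusted p = 0.097). Tyrobp, the adaptor of Trem2, had a log2 fold change of 1.21 ± 0.27 (0.90 with adjusted p = 0.038 without that pair). Ctss, a cathepsin of antigen presentation, was at 1.09 ± 0.31 on the same scale (0.64 with adjusted p = 0.17 without the pair). The median log2 fold change of the 16 markers was 0.92, against 0.01 over all genes. The list's summed level was 663 to 868 CPM in the HF/HS animals and 257 to 701 CPM in the controls. The number of called markers was 7 without animal 23, 1 without animals 23 and 171, and 5 without HF/HS animals 411 and 413. In bulk tissue, more macrophages and more of these RNAs per cell cannot be told apart.

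Of 14 markers of lipid-associated macrophages, 9 were higher. Trem2, a lipid receptor that marks these cells, was at 3.60, 2.36, 3.85, 2.88 and 5.16 CPM in the HF/HS animals against 1.56, 2.63, 2.03, 0.154 and 0.646 CPM. The ranges overlapped by 1 animal each (1.32 ± 0.41, adjusted p = 0.013), and the call was lost without animal 23 (1.05, adjusted p = 0.052), without animals 23 and 171 (0.79, adjusted p = 0.21) and without animals 411 and 413 (1.05, adjusted p = 0.11). Lgals3, a galectin of activated macrophages, was at 13.8 to 23.3 CPM against 2.23 to 12.8 CPM (1.5 ± 0.33), and its value was 0.99 (adjusted p = 0.041) without animals 23 and 171. Spp1, a secreted phosphoprotein on the same list, did not pass the test and was at 18.5 to 35.7 CPM against 16.4 to 50.6 CPM. Without animal 23 the called members numbered 5. Resident Kupffer cell markers were also higher, 4 of 7, with a median of 0.84. Against male controls at 20 weeks, 0 of the 7 were called in the HF/HS animals (median 0.03). In the old controls 3 were lower than at 20 weeks and 0 higher (median -0.82). The general macrophage list instead had 10 of 16 members higher against male controls at 20 weeks, and 0 called between old and young controls. Clec4f, a lectin receptor of Kupffer cells, was at 87.2, 66.1, 74.6, 71.2 and 60.5 CPM against 52.1, 48.8, 41.2, 37.0 and 48.8 CPM. The groups did not overlap (0.66 ± 0.23, adjusted p = 0.026), yet 3 single omissions lost the call: HF/HS animal 261 (0.57, adjusted p = 0.075), control animal 22 (0.63, adjusted p = 0.052) and control animal 23 (0.59, adjusted p = 0.072). Without animals 23 and 171 Clec4f was at 0.60 (adjusted p = 0.13). The count of 4 Kupffer markers fell to 0 without animal 23, to 1 without animal 261, 411 or 171, and to 2 without animal 22. Clec4f in controls at 20 weeks averaged 65.4 ± 31.0 CPM, between the means of both groups, whereas Mmp12 averaged 0.564 ± 0.393 CPM there.

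Chemokines and cytokines were higher in 11 of 21 members and lower in 0, with a median of 1.18. They included Ccl4, Il1b, Tnf and Cxcl10, and Il1b, an inflammasome product, was at 1.98 to 4.69 CPM against 0.431 to 1.96 CPM (1.61 ± 0.43, adjusted p = 0.0045). Without animals 23 and 171 Il1b was at 1.17 (adjusted p = 0.096) and Ccl4 at 1.38 (adjusted p = 0.11). Tnf, tumour necrosis factor (1.43), lost its call without animal 411, 413, 23 or 171, with adjusted p of 0.050 to 0.087. The count was 7 without control animal 23, 6 without animal 171 and 1 without both. Interferon response genes had 8 of 25 members higher, 2 of 25 without either of these animals, 5 without HF/HS animal 412, and 0 without both animals 23 and 171. Gbp2, a guanylate-binding protein induced by interferon gamma, was at 16.9 to 20.1 CPM against 3.85 to 15.1 CPM (0.89 ± 0.28, adjusted p = 0.015). It lost its call without animal 23 (0.69, adjusted p = 0.065) or 171 (0.75, adjusted p = 0.056), and without both it was at 0.48 (adjusted p = 0.27). Ubd, a ubiquitin-like protein induced by interferon gamma and tumour necrosis factor, was at 1.15 to 3.24 CPM against 0 to 1.15 CPM (1.79 ± 0.59, adjusted p = 0.021), and without animal 413, 23 or 171 its adjusted p was 0.064, 0.064 or 0.054. Without both control animals 23 and 171 it was at 1.28 (adjusted p = 0.18). Markers of T and natural killer cells had 0 of 8 tested members called, with a median of 0.71. The summed level of all 15 members, tested or not, was 5.93 to 13.8 CPM against 7.08 to 14.0 CPM. Themis, an adaptor known from developing T cells, was nevertheless higher, at 6.53, 6.47, 12.9, 6.85 and 19.6 CPM against 3.30, 6.06, 1.83, 0.693 and 0.646 CPM (2.04 ± 0.44, adjusted p = 0.00047). Ccr2, the receptor for Ccl2 on monocytes, was at 10.7 to 20.3 CPM against 3 to 9.81 CPM (1.24 ± 0.30; 0.85 with adjusted p = 0.077 without animals 23 and 171). It was the called member among 7 tested neutrophil and monocyte markers (14.3%, near the 13.1% over all genes). Ly6g, Retnlg, Mpo, Camp and Chil3 were too low to be tested.

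**Figure D2:**
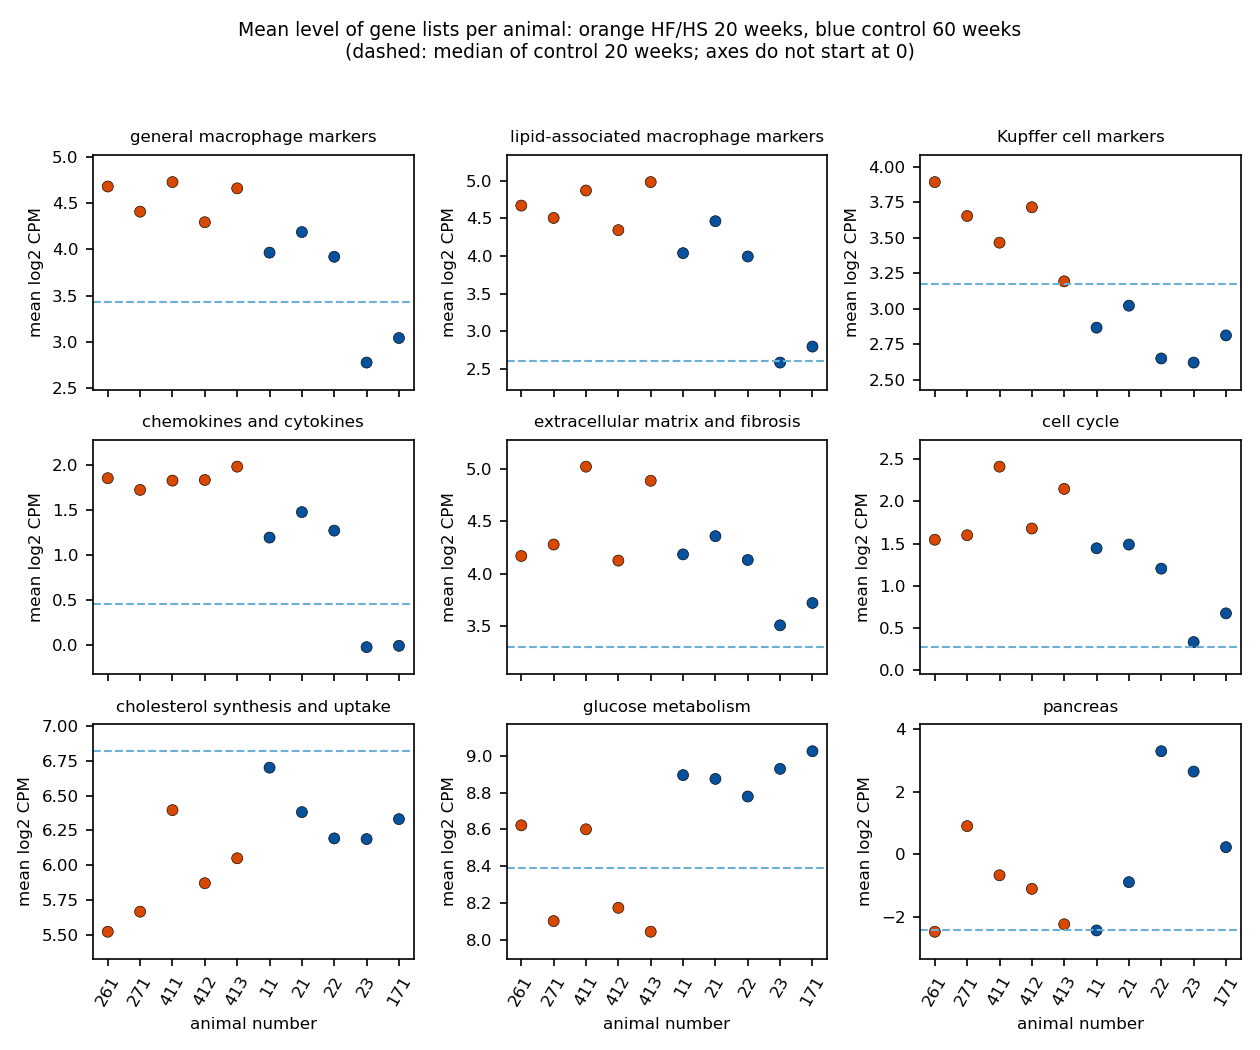
Mean log2 CPM of 9 gene lists in each of the 10 animals, HF/HS 20 weeks in orange and control 60 weeks in blue, with the median of male controls at 20 weeks as a dashed line; the vertical axes do not start at 0. Control animals 23 and 171 lie below the other 3 controls in the macrophage, chemokine, matrix and cell cycle lists, and HF/HS animals 411 and 413 lie highest in the matrix and cell cycle lists.

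Of 18 genes of lipid droplets and fatty acid uptake, 4 were higher, 2 lower and 12 did not pass, with a median of 0.34. The higher members made up 22.2%, against 13.1% of all genes, and the lower ones 11.1%, against 14.9%. Lpl, the lipase that frees fatty acids from lipoproteins, was higher in every HF/HS animal, at 117, 114, 106, 84.5 and 103 CPM against 38.6, 63.5, 40.5, 19 and 17.4 CPM (1.55 ± 0.29, adjusted p = 8.1e-05). Lpl was also counted among the lipid-associated macrophage markers. Its lowest control levels, 19 and 17.4 CPM, were in the animals that were low in macrophage genes. The part of macrophages in the Lpl level was not tested. Cidec, which fuses lipid droplets, was at 6.68, 6.94, 55.7, 6.27 and 61.5 CPM against 10.9, 11.0, 3.60, 1.77 and 2.01 CPM. Animals 411 and 413 were far above the rest, and the other 3 HF/HS animals lay within the control range. Its log2 fold change was 2.21 ± 0.58 (adjusted p = 0.0034) with all animals and 0.16 (adjusted p = 0.88) without these 2. Pparg, the adipogenic nuclear receptor, was highest in the same 2 animals, at 14.8 and 19.4 CPM (1.02 ± 0.29, and 0.53 with adjusted p = 0.24 without them; 0.77 with adjusted p = 0.051 without animal 413). Muc13, an epithelial mucin on the gut and gallbladder list, was at 14.4 and 13.6 CPM in animals 411 and 413 and at 0.577 to 1.32 CPM in the other 3, against 0.077 to 1.48 CPM in the controls (3.14 ± 0.71, and 0.37 with adjusted p = 0.79 without the pair). Plin4, a droplet coat protein, was lower, at 7.75 to 33.0 CPM against 30.1 to 73.5 CPM (-1.30 ± 0.45, adjusted p = 0.027). That call was lost in 5 of 10 single omissions, with the smallest value without control animal 21 (-1.07, adjusted p = 0.081). Cd36, the fatty acid transporter (0.56 ± 0.26, adjusted p = 0.10), Mogat1, a monoacylglycerol acyltransferase (1.02 ± 0.49, adjusted p = 0.11), Fasn, the fatty acid synthase (-0.45 ± 0.37, adjusted p = 0.38), and Scd1, the stearoyl-CoA desaturase (0.03 ± 0.17, adjusted p = 0.92), did not pass. Without control animal 11, Mogat1 (1.45, adjusted p = 0.036) and Cd36 (0.72, adjusted p = 0.048) passed.

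Of 36 matrix genes, 17 were higher and 2 lower, with a median of 0.48. Col1a1, a chain of type I collagen (chr11:94936224-94953042), was at 23.0, 23.2, 102, 15.7 and 54.7 CPM against 15.7, 22.5, 13.0, 6.08 and 12.9 CPM. The groups overlapped, and animals 411 and 413 carried the highest levels (1.63 ± 0.40, adjusted p = 0.0017). Without animal 411 the value was 1.06 (adjusted p = 0.034), and without both 0.56 (adjusted p = 0.33). Timp1, an inhibitor of metalloproteinases, was at 0.294 to 1.68 CPM against 0 to 0.540 CPM (2.52 ± 0.58, adjusted p = 0.00096). Its value was 3.99 without control animal 11, which held the highest control level, and 1.71 (adjusted p = 0.065) without animals 411 and 413. Without animals 411 and 413 the list had 2 higher members, and without control animals 23 and 171 it had 7. The lower members were Col5a2 and Col5a3, and Col5a3, named after its values were seen, was at 47.1 to 51.2 CPM against 68.9 to 140 CPM (-0.93 ± 0.20, adjusted p = 0.00043). Of 12 stellate cell markers, Pdgfrb, a growth factor receptor, was higher (0.63 ± 0.17; 0.34 with adjusted p = 0.20 without animals 411 and 413, and 0.45 with adjusted p = 0.12 without animals 23 and 171) and Ecm1, a secreted matrix glycoprotein, was lower (-0.52 ± 0.09). These calls are 8.33% of the list each way, below the 13.1% higher and 14.9% lower over all genes.

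Cell cycle genes had 12 of 30 members higher and 0 lower, with a median of 0.95. Aurkb, a mitotic kinase, was at 0.807, 0.808, 1.69, 0.649 and 1.08 CPM against 0.600, 0.337, 0.327, 0 and 0.144 CPM (1.76 ± 0.53, adjusted p = 0.010). Its value was 1.23 (adjusted p = 0.14) without animals 23 and 171 and 1.35 (adjusted p = 0.12) without animals 411 and 413. The ranges did not overlap, though by a narrow margin at this depth. Mki67, a nuclear protein of cycling cells, was at 10.1 to 31.8 CPM against 2.23 to 12.1 CPM (1.35 ± 0.45, adjusted p = 0.022). Its call was lost without HF/HS animal 411 (1.05, adjusted p = 0.093), control animal 23 (1.13, adjusted p = 0.077) or control animal 171 (1.15, adjusted p = 0.075), and without both controls its value was 0.85 (adjusted p = 0.26). The list's count was 6 without animal 411, 6 without animal 23, 7 without animal 171 and 0 without both control animals. Which cells were cycling was not tested.

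Cholesterol synthesis was lower in part. Of 24 genes, 8 were lower and 0 higher, with a median of -0.44. The lower members included Lss, Tm7sf2, Ebp and Mvk, enzymes of the pathway, and Insig1 and Srebf2, which control it. Insig1 (-0.57) lost its call in 7 of 10 single omissions, with adjusted p of 0.053 to 0.12. Lss, lanosterol synthase (chr10:76531588-76557138), was at 38.4, 38.1, 67.3, 45.6 and 46.9 CPM against 80.7, 70.9, 59.3, 68.2 and 93.1 CPM. Animal 411 lay above the lowest control and the other 4 HF/HS animals below it (-0.66 ± 0.20, adjusted p = 0.012), and without control animals 23 and 171 the value was -0.57 (adjusted p = 0.088). Sqle, the squalene epoxidase, was at 6.68 to 9.43 CPM in 3 HF/HS animals and 41.0 and 30.9 CPM in animals 411 and 413, against 17.5 to 41.8 CPM, and did not pass (-0.43 ± 0.47, adjusted p = 0.51). The list's count was 5 without each of animals 261, 271, 413, 11 and 171, and 11 without both animals 411 and 413. With a component of the clock genes as a covariate (described below with those genes) it was 0.

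Cyp7a1, the enzyme that limits bile acid synthesis (chr4:6265612-6275633), was higher, at 166, 196, 110, 84.6 and 317 CPM against 63.5, 43.2, 18.2, 24.0 and 38.7 CPM. The groups did not overlap (2.22 ± 0.59, adjusted p = 0.0038), and without control animals 22 and 23 the value was 1.85 (adjusted p = 0.057). Cyp7a1 was among the 12 highest genes, which were picked for separate ranges. Controls at 20 weeks averaged 64.5 ± 53.8 CPM, and males after 60 weeks of HF/HS diet ranged from 32.0 to 74.7 CPM, a range that overlapped the old controls. Of the 22 tested genes of bile acid synthesis and transport, 5 others were lower, and 3 without animal 413. Slco1a4, an organic anion uptake carrier, had a log2 fold change of -1.13 ± 0.28, and Cyp27a1, the sterol 27-hydroxylase of the alternative route, of -0.37 ± 0.11, which missed the threshold without animal 413 (-0.27, adjusted p = 0.080). Nr0b2, a repressor of Cyp7a1, was at 29.8 to 79.5 CPM against 46.9 to 147 CPM (-0.77 ± 0.30, adjusted p = 0.047), a call lost in 7 of 10 single omissions. Cyp8b1, the sterol 12-hydroxylase, and Abcb11, the bile salt export pump, were named after their values were seen and did not pass (0.29 ± 0.35 and 0.06 ± 0.08). Of 11 sterol efflux genes, Abcg1 (0.87 ± 0.18) and Abca1 (0.34 ± 0.08), both cholesterol exporters, were higher (18.2%, against 13.1% of all genes).

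**Figure D3:**
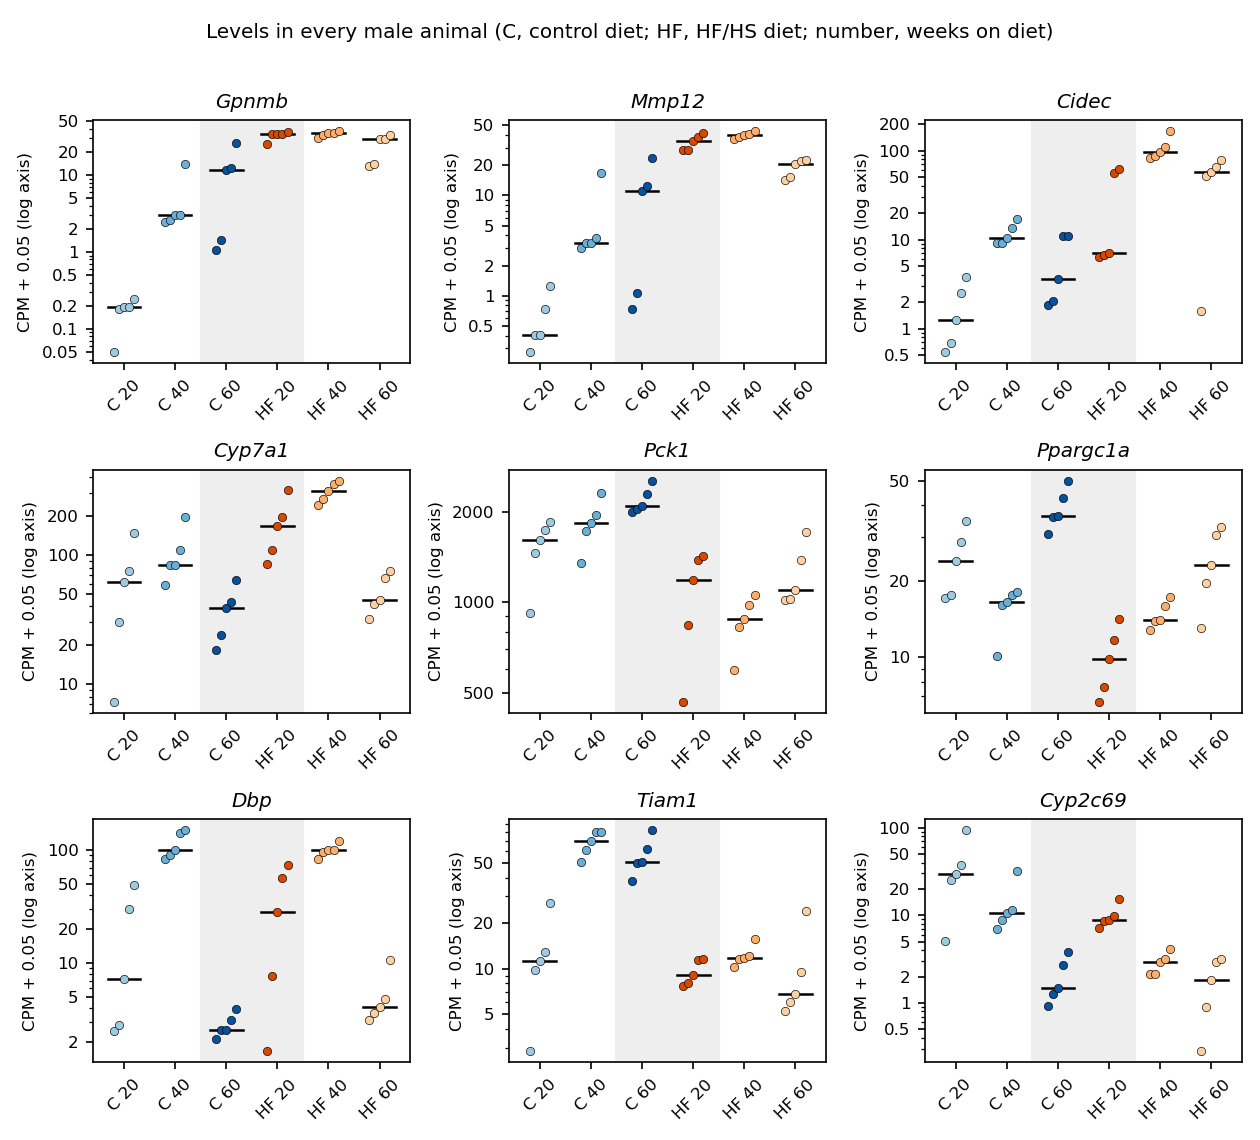
CPM of 9 genes in every male animal by group (C, control diet; HF, HF/HS diet; weeks on diet), on a log axis after adding 0.05; bars are group medians and the shaded columns are the groups compared. Gpnmb and Mmp12 step up from C 20 to C 60 to HF 20, Cyp7a1 and Pck1 separate the shaded groups without overlap, and Tiam1 is highest in C 40 and C 60.

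Of 20 genes of glucose metabolism, 12 were lower (60%, against 14.9% of all genes), 1 was higher and 7 did not pass, with a median of -0.52. Against male controls at 20 weeks, 2 members were lower and 3 higher in the HF/HS animals (median 0.003). In the old controls 8 were higher than at 20 weeks and 0 lower (median 0.41). Between the diets in males at 40 weeks, 8 were lower and 0 higher (median -0.33). Pck1, the gluconeogenic carboxykinase (chr2:173153048-173159273), was at 1427, 842, 1190, 1383 and 468 CPM against 2096, 2531, 1997, 2038 and 2286 CPM. Every control lay above every HF/HS animal (-1.04 ± 0.24, adjusted p = 0.0012). Male controls at 20 weeks averaged 1514 ± 361 CPM, between the groups. Tat, tyrosine aminotransferase, a gene of the fasting and glucocorticoid response, was at 1335, 668, 1199, 783 and 426 CPM against 2195, 2714, 1762, 2128 and 2556 CPM (-1.36 ± 0.34, adjusted p = 0.0024). Irs2, the insulin receptor substrate induced on fasting, was at 37.7 to 76.8 CPM against 99.6 to 159 CPM (-1.16 ± 0.19, adjusted p = 8.7e-06). Ppargc1a, the coactivator of mitochondrial and gluconeogenic genes, was at 6.61, 7.54, 14.2, 11.7 and 9.77 CPM against 42.8, 49.9, 30.7, 36.0 and 36.2 CPM (-1.97 ± 0.22, adjusted p = 8.1e-09). Against the mean of controls at 20 weeks (24.4 ± 7.46 CPM), the 5 HF/HS animals were below it and the 5 old controls above it. G6pc, glucose-6-phosphatase, overlapped between the groups (-0.90 ± 0.32, adjusted p = 0.029) and lost its call without animals 271, 412, 413 or 171 (without 171, -0.60 with adjusted p = 0.18). Gckr, which holds glucokinase in the nucleus, was named after its values were seen and had the narrowest ranges, 152 to 159 CPM against 231 to 265 CPM (-0.64 ± 0.06, adjusted p = 5.7e-10). Gys2, the liver glycogen synthase, was the higher member (0.37 ± 0.12).

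The list's count was 8 without animals 23 and 171 and 9 without animals 411 and 413. With the clock component described next as a covariate it was 7.

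Clock genes differed between the groups, and the sources used here do not give the hour of sampling. Of 17 clock genes, 3 were higher and 6 lower. Dbp, a transcription factor at the output of the clock, was at 1.61, 74.2, 7.69, 28.6 and 56.5 CPM in HF/HS animals 261, 271, 411, 412 and 413 against 2.52, 3.10, 2.09, 3.85 and 2.51 CPM. Animals 271, 412 and 413 were high, animal 411 was intermediate, and animal 261 lay below all controls (3.59 ± 0.73, adjusted p = 0.00023). Bhlhe41, a repressor of clock genes, was at 3.16, 30.3, 4.18, 19.3 and 13.4 CPM against 1.87 to 3.85 CPM (2.55 ± 0.47, adjusted p = 7.1e-05). Per3 followed the same animals, at 4.33, 36.8, 5.2, 23.1 and 22.0 CPM against 5.46 to 8.98 CPM (1.36 ± 0.43, adjusted p = 0.015), and lost its call without animal 271 (0.94, adjusted p = 0.10). With the clock covariate described next its sign turned and the opposite call was made (-0.54, adjusted p = 0.0099). Per1, another period gene, was lower, at 44.4, 47.8, 37.8, 18.6 and 4.86 CPM against 59.8, 90.5, 75.1, 80.9 and 96.8 CPM, without overlap (-1.40 ± 0.41, adjusted p = 0.0081), with adjusted p of 0.054 without animals 23 and 171, 0.068 without animals 411 and 413 and 0.081 with that covariate. Arntl, Npas2, Cry1 and Nfil3 were also lower, and the count of lower members was 2 without animal 271 and 3 without animal 413, 11 or 171.

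A first principal component computed from the clock genes, scaled over all 60 libraries, took 76.1% of that list's variance. It was -0.94 to -0.60 in the 5 controls and -0.95, 1.45, -0.50, 0.63 and 0.77 in the HF/HS animals. With it as a covariate, 1680 genes were higher and 1894 lower. Pck1 (-0.89, adjusted p = 0.011), Ppargc1a (-1.83) and Irs2 (-0.92) kept their calls. Cyp7a1 moved to 1.42 (adjusted p = 0.051), Tat to -0.80 (adjusted p = 0.057) and Lss to -0.25 (adjusted p = 0.35), and the cholesterol list went from 8 lower members to 0. Of the clock genes, Dbp (0.30, adjusted p = 0.38) and Bhlhe41 (0.75, adjusted p = 0.057) lost their calls. The component was computed from the clock genes themselves, so the changes of Dbp, Bhlhe41, Per1 and Per3 under it are no separate test. It was also higher in most HF/HS animals than in the controls. A call lost under it therefore cannot tell the clock from diet and duration. The general macrophage list went from 12 to 14 higher members. The part of the clock in the other differences was not tested further.

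Upstream stretches of 4 clock genes are shown because they carry the short elements through which the clock acts, in genes that differed in opposite directions. The E-box CACGTG is the site of the Clock and Arntl pair, and the D-box TTATGTAA is a site of Dbp and of its competitor Nfil3. Letters are from RefSeq GRCm38.p6, 5′ to 3′ up to the base before a start site, with the motif in capitals and both strands searched. Per1 (chr11:69098763-69098948, plus strand; the first of 2 listed starts) and Cry1 (chr10:85185055-85185204, minus strand) were lower, and Bhlhe41 (chr6:145865421-145865593, minus strand) and Per3 (chr4:151044666-151044890, minus strand) were higher.
Per1: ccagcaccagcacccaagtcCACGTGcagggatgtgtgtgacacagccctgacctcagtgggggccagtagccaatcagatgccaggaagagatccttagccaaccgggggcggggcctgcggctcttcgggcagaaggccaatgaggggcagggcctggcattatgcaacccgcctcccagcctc
Cry1: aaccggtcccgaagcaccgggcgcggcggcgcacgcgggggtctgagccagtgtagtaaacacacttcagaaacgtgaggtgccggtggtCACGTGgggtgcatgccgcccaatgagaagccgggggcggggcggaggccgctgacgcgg
Bhlhe41: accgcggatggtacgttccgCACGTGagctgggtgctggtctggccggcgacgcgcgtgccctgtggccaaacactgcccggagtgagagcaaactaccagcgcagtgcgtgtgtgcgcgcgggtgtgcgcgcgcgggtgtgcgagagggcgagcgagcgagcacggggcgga
Per3: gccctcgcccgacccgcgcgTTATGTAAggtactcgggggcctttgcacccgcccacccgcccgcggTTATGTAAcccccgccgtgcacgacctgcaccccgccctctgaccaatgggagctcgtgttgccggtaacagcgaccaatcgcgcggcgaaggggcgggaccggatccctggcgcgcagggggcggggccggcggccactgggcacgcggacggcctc
Of 17 clock genes, 15 had a RefSeq promoter, and 5 of these (Bhlhe41, Ciart, Cry1, Per1 and Tef) held CACGTG in the 250 bases before a start, against 6.02% of all 32851 promoters. Per3 alone among them held TTATGTAA, with 2 matches, against 0.819% of all promoters. Only this exact spelling was searched. The printed Per1 stretch holds ttatgcaa, which differs from it in a single base and was not counted. The shares over all promoters count each start by itself, whereas the gene counts take any listed start. The genes printed were picked for their opposite directions, so the unlike directions of the 3 with an E-box are no result. Ciart and Tef were not called.

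A set of genes was high in old controls and low in the HF/HS livers. Those from the 12 lowest, Tiam1 and Pclo among them, were picked for separate ranges. Tiam1, an exchange factor for Rac (chr16:89787111-90143769), was at 7.63, 8.96, 7.96, 11.4 and 11.5 CPM against 49.8, 37.7, 50.5, 61.9 and 81.8 CPM. Every control was above every HF/HS animal (-2.57 ± 0.30, adjusted p = 1.7e-08). It was at 12.8 ± 8.96 CPM in controls at 20 weeks, 50.6 to 80.2 CPM in controls at 40 weeks, and 10.2 to 15.7 CPM after 40 weeks of HF/HS diet. In animals outside the comparison it differed both between controls at 40 and 20 weeks (2.42, adjusted p = 7.6e-08) and between the diets at 40 weeks (-2.48, adjusted p = 3.2e-08). Lrtm1, a leucine-rich repeat membrane protein, was at 2.64, 2.56, 3.17, 2.88 and 2.10 CPM against 19.9, 13.9, 15.7, 24.9 and 32.0 CPM (-2.99 ± 0.45, adjusted p = 2.7e-06). It too was higher in controls at 40 than at 20 weeks (2.61, adjusted p = 4.8e-05) and lower on HF/HS than control diet at 40 weeks (-1.83, adjusted p = 0.00071).

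Dnah17, an axonemal dynein chain, was at 0.0599 to 0.505 CPM against 1.68 to 8.32 CPM (-3.98 ± 0.58, adjusted p = 1.5e-06), and Pcdh20, a protocadherin, at 0.0721 to 0.810 CPM against 2.16 to 6.39 CPM (-3.77 ± 0.78, adjusted p = 0.00028). Both were lower on HF/HS diet at 40 weeks as well (-2.92 and -3.58), while their differences between controls at 40 and 20 weeks did not pass (0.71 and 0.76). Both were already present in controls at 20 weeks, at 4.12 ± 2.90 and 2.33 ± 2.31 CPM.

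In Mapk10, Nebl and Neat1 the old controls were high and the young controls low. Mapk10, the JNK kinase best known from neurons, was at 0, 0.0674, 0.337, 0.0721 and 0.0599 CPM against 2.58, 2.76, 2.03, 2.62 and 1.80 CPM (-4.35 ± 0.75, adjusted p = 3.5e-05), and at 0.156 ± 0.211 CPM in controls at 20 weeks. Nebl, the actin-binding nebulette, was at 1.32, 1.08, 2.29, 1.66 and 3.54 CPM against 16.1, 14.7, 10.3, 7.78 and 8.4 CPM (-2.52 ± 0.32, adjusted p = 1.2e-07), and at 1.24 ± 0.602 CPM in controls at 20 weeks. At 40 weeks it was higher on the HF/HS diet (1.33, adjusted p = 0.0007), the other way round from the present comparison. Neat1, the long non-coding RNA of paraspeckles (chr19:5824708-5845478), was at 891, 680, 1410, 1804 and 833 CPM against 3752, 6038, 6395, 5481 and 5004 CPM (-2.25 ± 0.32, adjusted p = 1.5e-06). After 60 weeks of HF/HS diet it ranged from 2254 to 3574 CPM. Noct, a rhythmic phosphatase once taken for a deadenylase, was at 12.3 to 27.7 CPM against 50.7 to 164 CPM (-2.46 ± 0.42, adjusted p = 2.1e-05). Cmya5, a muscle protein, had separate ranges (-3.49 ± 1.18, adjusted p = 0.023) but lost its call without control animal 21 (-2.38, adjusted p = 0.16) or HF/HS animal 271 (-3.18, adjusted p = 0.053). Summed muscle markers were at 3.89 to 14.4 CPM in the HF/HS animals and 15 to 64.6 CPM in the controls. Myh11, smooth muscle myosin (-1.0 ± 0.22), and Actg2, smooth muscle actin (-1.60 ± 0.47), were the 2 called members of 11. They make up 18.2%, near the 14.9% of all genes that were lower. The part of muscle tissue in the Cmya5 and Nebl values was not tested. Pclo, a scaffold of synaptic vesicle release, was at 3.60, 5.05, 6.68, 6.06 and 10.6 CPM against 29.9, 25.9, 21.5, 23.6 and 15.8 CPM, with no overlap (-1.86 ± 0.18, adjusted p = 5.7e-10). Slc4a9, an anion exchanger, was at 1.84 to 5.63 CPM against 8.26 to 22.5 CPM (-2.08 ± 0.34). Cgref1, a secreted calcium-binding protein, went the other way, at 2.35 to 7.91 CPM against 1.08 to 1.68 CPM (1.74 ± 0.30), and it was also higher in males on the HF/HS diet at 40 weeks (1.41, adjusted p = 7.2e-05).

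**Figure D4:**
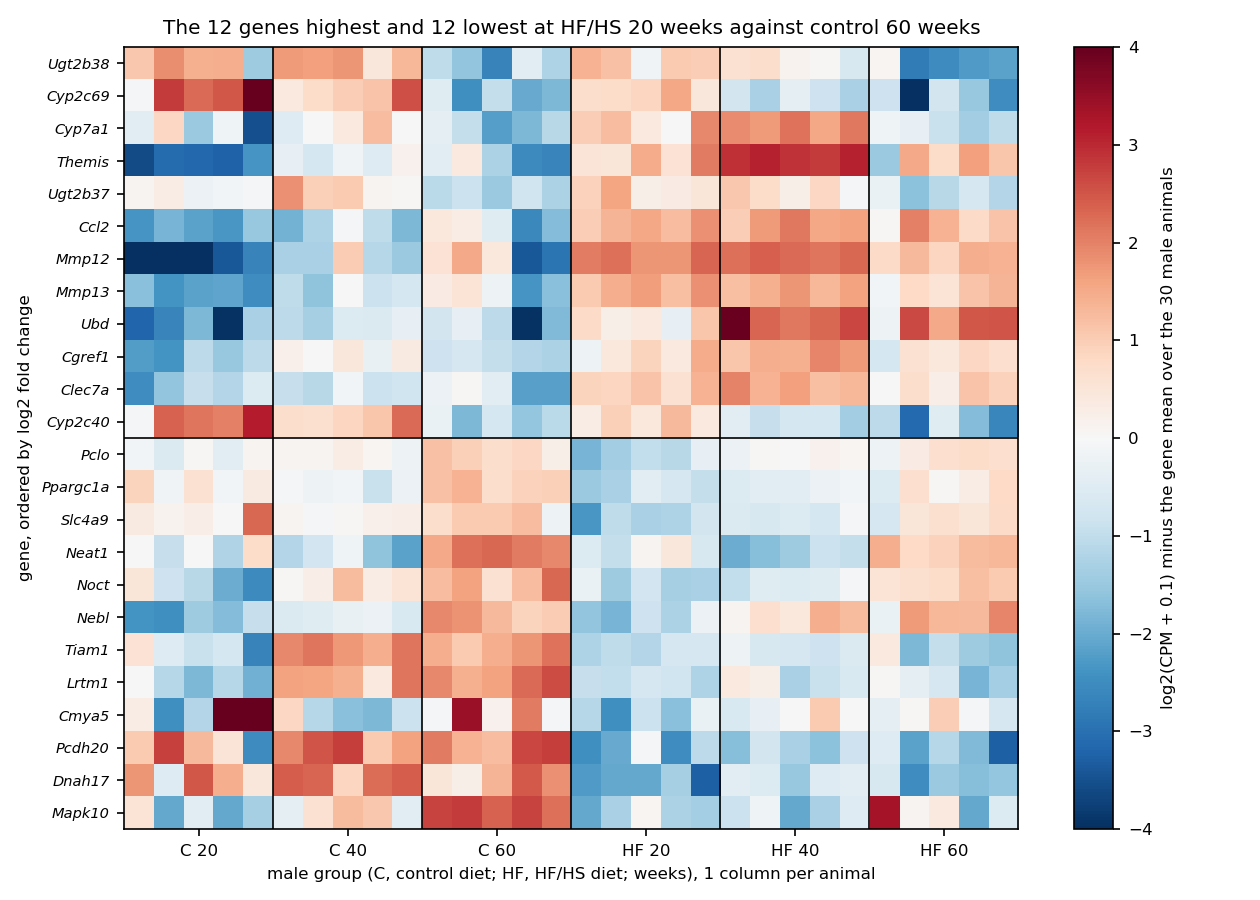
Level of the 12 genes highest and the 12 lowest at HF/HS 20 weeks against control 60 weeks, among called genes with separate ranges and a mean of at least 1 CPM, in all 30 male animals; colour is log2(CPM + 0.1) minus the gene's mean, from -4 (blue) to 4 (red). Tiam1 and Lrtm1 are red in C 40 and C 60, whereas Neat1, Nebl and Mapk10 are red in C 60.

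The 12 highest genes, also picked for separate ranges, included 4 of the Cyp2c and Ugt2b families. The list of xenobiotic metabolism as a whole had 0 of 18 members higher and 1 lower (Nr1i2, a nuclear receptor for foreign compounds, named after its values were seen), with a median of -0.03. Cyp2c69, a cytochrome P450 of the Cyp2c cluster (chr19:39842814-39886799), was at 8.66, 8.76, 9.65, 15.4 and 7.13 CPM against 3.72, 0.876, 2.68, 1.23 and 1.44 CPM (2.28 ± 0.49, adjusted p = 0.00048). Controls at 20 weeks averaged 38.0 ± 32.9 CPM, and males after 60 weeks of HF/HS diet were at 0.231 to 3.09 CPM. Both groups compared thus lay below the mean of young controls, the old controls further below. Its neighbour Cyp2c40 had the same order, at 12.6 to 25.4 CPM against 2.90 to 8.58 CPM (1.70 ± 0.36), beside 48.2 ± 29.3 CPM in controls at 20 weeks. Ugt2b38, a glucuronosyltransferase, was at 8.07, 6.94, 2.70, 6.27 and 6.05 CPM against 1.44, 0.943, 0.392, 2.16 and 1.22 CPM (2.29 ± 0.47, adjusted p = 0.00029), and Ugt2b37 at 3.24 to 8.35 CPM against 0.916 to 1.54 CPM (1.95 ± 0.51). Both Cyp2c genes were on the list of female-biased liver genes. Of its 19 tested members 2 were higher (10.5%, against 13.1% of all genes) and 2 lower (10.5%, against 14.9%). The Cyp2c and Ugt2b families hold near-identical copies, and the sources used here do not give how reads shared between copies were counted. Of 14 male-biased liver genes, Cyp4a12a, a fatty acid hydroxylase (0.75 ± 0.25), and Selenbp2, a selenium-binding protein (1.58 ± 0.57), were higher. These 2 of 14 are 14.3%, near the 13.1% over all genes. The Selenbp2 call was lost in 6 of 10 single omissions and the Cyp4a12a call without control animal 22 (0.68, adjusted p = 0.053). Moxd1, a monooxygenase, was at 259, 111, 27.7, 191 and 13.1 CPM against 0.540, 0.337, 3.14, 6.70 and 128 CPM and did not pass (2.13 ± 0.90, adjusted p = 0.068). It passed without control animal 171 (5.56, adjusted p = 0.00019) and, narrowly, without HF/HS animal 413 (2.43, adjusted p = 0.0498).

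Enzymes of methionine metabolism were lower in 6 of 18 members. Cbs, cystathionine beta-synthase, was at 388 to 432 CPM against 587 to 696 CPM (-0.60 ± 0.08, adjusted p = 7.6e-07), with all controls above all HF/HS animals. Gnmt, glycine N-methyltransferase, was lower (-0.42 ± 0.09), and Psat1, a serine synthesis enzyme, was higher (1.12 ± 0.35), a call lost without animal 413 (0.83, adjusted p = 0.090). Among hepatocyte markers, 5 of 17 were lower. F2, prothrombin, was at 1128 to 1286 CPM against 1410 to 1630 CPM (-0.29 ± 0.05), and Hal, histidine ammonia-lyase, had a log2 fold change of -0.60 ± 0.12. Cps1 of the urea cycle (-0.41 ± 0.13) lost its call without animal 413 or 23. Ribosomal protein genes were higher in 8 of 30 members and lower in 0. Against male controls at 20 weeks, 28 of the 30 were lower in the HF/HS animals (median -0.26). In the old controls 29 were lower than at 20 weeks (median -0.44). Both groups compared thus lay below young controls, the old controls further below. The same contrast in females had 0 higher and 2 lower members. Rps7, of the small subunit, was at 87.4 to 112 CPM against 58.5 to 74.0 CPM (0.49 ± 0.08, adjusted p = 6.4e-06), and the list's count was 14 without animal 171. Fth1, the ferritin heavy chain (0.25 ± 0.05), and the antioxidant genes Srxn1 (0.62 ± 0.14) and Gsr (0.22 ± 0.06) were higher. Of 10 antioxidant genes, 4 were called, and 2 without each of animals 261, 412, 413 and 171.

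Of 10 tested B and plasma cell markers, 2 were lower (20%, against 14.9% of all genes) and 8 did not pass. Mzb1, a chaperone of antibody assembly, was at 0.294, 0.269, 0.202, 0.360 and 0.300 CPM against 0.660, 0.943, 0.523, 2.08 and 2.37 CPM (-2.16 ± 0.38, adjusted p = 3.3e-05). Animals 23 and 171, low in macrophage genes, were highest here, and without them the value was -1.29 (adjusted p = 0.026). Jchain, which joins antibody monomers, was lower (-1.10 ± 0.33, adjusted p = 0.012; -1.01 with adjusted p = 0.070 without that pair), while the B cell receptor chain Cd79a did not pass (-0.26 ± 0.48, adjusted p = 0.72). Of 13 dendritic cell markers, 3 were higher (23.1%, against 13.1% of all genes) and 1 lower (7.69%, against 14.9%). The other 9 did not pass, and the median was 0.45. Clec9a, of cross-presenting dendritic cells, was the lower member (-0.76 ± 0.21). The higher members were genes of class II antigen presentation, among them H2-Aa (0.90 ± 0.27) and Cd74 (0.70 ± 0.23). H2-Aa had an adjusted p of 0.26 without animals 23 and 171. Cd74 lost its call without animal 411 (0.61, adjusted p = 0.053), 23 (0.51, adjusted p = 0.091) or 171 (0.56, adjusted p = 0.080). Gdf15, a stress cytokine, was at 10.9 to 29.5 CPM against 19.7 to 43.0 CPM in 4 controls and 139 CPM in control animal 171 (-1.33 ± 0.34, adjusted p = 0.0033). Without that animal it was -0.51 (adjusted p = 0.21). Pancreatic enzyme transcripts were uneven. Their summed level was 272 CPM at most in the controls and 68.6 CPM at most in the HF/HS animals, and Pnlip, pancreatic lipase, named after its values were seen, was at 26.0 and 17.8 CPM in control animals 22 and 23 and at most 5.86 CPM elsewhere. Of 18 tested pancreas genes, 1 was called (5.56%, against 14.9% of all genes lower). This was Sycn, a protein of secretory granules (-3.82 ± 1.45, adjusted p = 0.043). It was not called in 6 of 10 single omissions or without animals 22 and 23 (-0.99, adjusted p = 0.78). Of all 19 members of the list, tested or not, 0 were at 0 counts in animal 22 and 16 in HF/HS animal 261.

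The panel genes Fgf21, the fasting hormone of the liver (0.02 ± 0.32), Saa1, an acute phase protein (-0.07 ± 0.78), Afp, the fetal albumin (0.30 ± 0.26; 0.68 with adjusted p = 0.048 without control animal 171), Gpc3, a glypican of liver tumours (-0.10 ± 0.29), Abcg5, a sterol exporter (-0.07 ± 0.16), Cyp4a14, a target of Ppara (-0.70 ± 0.65), and Cdkn1a, a cell cycle inhibitor (-1.12 ± 0.46, adjusted p = 0.059; -1.38 with adjusted p = 0.035 without HF/HS animal 261), did not pass, which does not show equal levels.

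The same contrast in females, 5 HF/HS animals at 20 weeks and 5 controls at 60 weeks that share no library with the males, had 1029 genes higher (7.26%) and 1346 lower (9.49%), 16.7% in all. Of the 1853 genes higher in males, 494 were higher in females (26.7%, or 48% of the female list) and 7 lower. Of the 2115 lower in males, 787 were lower in females (37.2%, or 58.5% of the female list) and 3 higher. Cyp7a1 (2.40, adjusted p = 0.0041), Mmp12 (2.16, adjusted p = 0.0047), Noct (-3.12, adjusted p = 1.7e-06), Dbp (4.18, adjusted p = 0.00035) and Pck1 (-0.90, adjusted p = 0.0089) passed in females in the male direction. Of 17 clock genes, 5 were higher and 4 lower in this female contrast. With the clock covariate 564 genes were higher and 652 lower in it. The part of the clock in the female differences was not tested. The macrophage lists did not repeat in females. Of 16 general macrophage markers 0 were called (median -0.14), and of 7 Kupffer cell markers 0 (median -0.27). Of 14 lipid-associated macrophage markers, 1 was higher and 2 were lower (median 0.43). Cd68 (0.14, adjusted p = 0.78) and Clec4f (-0.12, adjusted p = 0.75) did not pass in females, but the difference between the sexes did not pass for either (1.0, adjusted p = 0.27, and 0.78, adjusted p = 0.27).

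A test of the difference between the male and the female contrast called 44 genes (0.31%), 18 with a higher value in males (0.127%) and 26 with a lower one (0.183%). Tiam1 was among them (-2.26 ± 0.51, adjusted p = 0.026), with -0.31 (adjusted p = 0.65) in females. Ugt2b37 had opposite signs, 1.95 in males and -2.0 in females (difference 3.95 ± 0.60, adjusted p = 0.00011). Cyp2c69 was 2.28 in males and -0.33 in females (difference 2.60 ± 0.61, adjusted p = 0.038). Abcg5 was higher in females (0.95, adjusted p = 0.00014) and did not pass in males (difference -1.02 ± 0.23, adjusted p = 0.032). Outside the naming rule, and named after their values were seen, the largest differences belonged to Megf11 (4.39 ± 0.78), Cyp3a11, a P450 of drug metabolism (-4.08 ± 0.66), and Cyp4a12b (-3.97 ± 0.49).

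**Figure D5:**
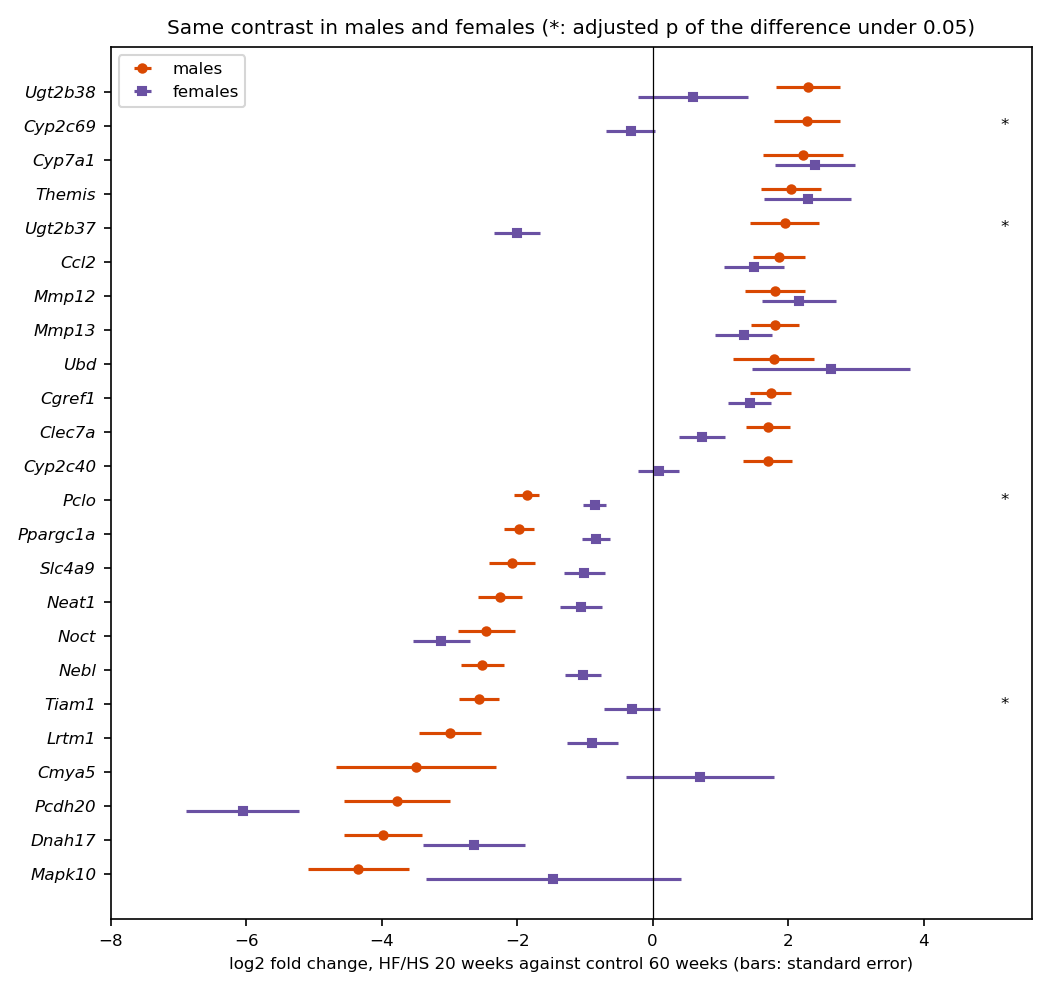
Log2 fold change of HF/HS 20 weeks against control 60 weeks in males (circles) and females (squares) for the 24 genes highest and lowest in males, with standard errors; an asterisk marks an adjusted p under 0.05 for the difference. Ugt2b37 lies on opposite sides of 0, and Cyp7a1 and Mmp12 lie together.

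Males of other groups served to read the contrast in animals outside it. In males at 40 weeks, HF/HS against control diet, 21.2% of all genes were higher and 15.2% lower. Of the 1853 genes higher in the present contrast, 786 were higher there (42.4%, or 26.1% of that list) and 71 lower. Of the 2115 lower genes, 706 were lower there (33.4%, or 32.7% of that list) and 67 higher. Between male controls at 40 and 20 weeks, 10.4% of all genes were higher and 12.8% lower with time. Of 17 clock genes, 6 were higher and 5 lower there. With the clock covariate the counts went from 1476 higher and 1809 lower genes to 436 and 717. The part of the clock in this comparison was not tested, and "with time" names only its direction. Of the 1853 genes higher in the present contrast, 339 were lower with time (18.3%) and 185 higher (9.98%). Of the 2115 lower genes, 271 were higher with time (12.8%) and 276 lower (13%). Gpnmb and Mmp12 are examples of genes that rose both on the diet at 40 weeks (2.79 and 2.75) and with time on the control diet (5.27 and 3.36). Cyp2c40 fell in both (-2.09 and -0.97), and Tiam1 rose with time while it fell on the diet.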

How the data were processed

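Liver RNA of 60 mice was sequenced, 5 animals for each sex, diet and duration. RNA came from frozen livers by miRNeasy kits and went into stranded total RNA libraries with ribosomal depletion, per the labels' protocols. The series design names the NextSeq 500. The authors deposited raw counts per gene for each library, and mm10 is the build in the submitters' processing notes. Aligner, counter, annotation and use of strand: not given in the sources used here. Therefore overlapping genes and near-identical copies are uncertain.

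Groups came from the sample labels. Of 24982 gene entries, 4778 had no count, and 26 symbols turned into dates (0.201% of counts) were kept in totals and never named. All 60 libraries were fitted with 12 group means (edgeR 4.0.16 in R 4.3.3, TMM scaling, filterByExpr with a minimum count of 10 and a minimum total of 15, quasi-likelihood test, Benjamini-Hochberg adjustment over 14180 genes, threshold 0.05). CPM used TMM-scaled library sizes, and SE is the size of the log2 fold change divided by the square root of F. List levels are means of log2 CPM with a prior count of 2. Summed levels take every list member in the data, tested or not. The spread was estimated over all 60 libraries together. Pairs of libraries within the 2 groups differed by a chi-square of at least 8.17 per degree of freedom, more than counting noise. Pearson r of log2 CPM was 0.980 to 0.990 within HF/HS 20 weeks, 0.975 to 0.989 within control 60 weeks and 0.956 to 0.985 between them.

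The fit was tested on simulated data of this comparison. It recovered 62.7%, 83.6% and 92.4% of 67, 67 and 66 genes changed 1.5-, 2- and 4-fold, with 3 false calls of 13953 genes tested. The simulated counts were independent between animals, and all other genes kept a common mean in every group. Shifts of many genes at once in single animals, such as 23 and 171, were not simulated. The error of the real comparison was therefore not measured. Alternatives were RLE scaling, no filter, removal of small non-coding RNA genes, only the libraries of the comparison, DESeq2 1.42.0, limma 3.58.1 (voom with sample weights), a test against a 1.5-fold change and leaving out each library. Leaving out pairs of animals (23 and 171, 22 and 23, 411 and 413) and the clock covariate were chosen after seeing the data.

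The members, the 44 lists and the rules were chosen with earlier results of these data known. Named genes were the 12 highest and 12 lowest called genes with separate ranges and a mean of at least 1 CPM, up to 4 called members of each list by size of change, and a panel of 29 genes, 149 in all, of which 144 were checked for a difference between the sexes; some genes are not reported here. Other list members named beside a count were chosen after their values were seen. Gene coordinates are from GENCODE M21 by symbol, and promoters are from RefSeq.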

Additional observations from a re-analysis of the deposited data

Results flagged for a closer look

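In groups of 5, a sample was picked out when its gap to the nearest other sample exceeded 0.71 of the group's range. This held in 10 of 170 checks, where chance gives about 1 in 20. Among the HF/HS animals, animal 412 was lowest in Gpnmb (25.3 CPM, next 33.7), and animal 411 was highest in Mapk10 (0.337 CPM, next 0.0721). Animal 261 had the highest mean log2 CPM of the acute phase list (9.02, next 8.62) and of the ribosomal protein list (6.58, next 6.41). Among the old controls, animal 11 was highest in Timp1 (0.540 CPM, next 0.131) and animal 23 in Bhlhe41 (3.85 CPM, next 2.29). Animal 171 was highest in Cbs (696 CPM, next 616) and in Moxd1 (127.5 CPM, next 6.70). Animal 23 had the lowest mean log2 CPM of the sterol efflux list (7.47, next 7.69), and animal 171 of the endothelial marker list (5.04, next 5.22).

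Of 144 named genes, 6 differed between the male and the female contrast by the interaction test of edgeR. The male value was lower for Tiam1 (difference -2.26 on the log2 scale), Abcg5 (-1.02) and Pclo (-1.0). It was higher for Ugt2b37 (3.95), Cyp2c69 (2.60) and Rplp0 (0.43), a ribosomal protein gene.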

How the results depend on the processing

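No paired analysis was possible because animal numbers are unique to each library. Fitted on the libraries of the comparison alone, 1032 genes were higher and 1292 lower, with 299 and 418 in females, 3 and 9 for the sex difference, and 1061 lower in controls at 40 against 20 weeks. Against a 1.5-fold change, 20 were higher and 45 lower. Counts were 817 and 935 without control animals 23 and 171, 1029 and 1402 without 22 and 23, and 1200 and 1371 without HF/HS animals 411 and 413. Single omissions gave 1396 to 1919 higher and 1594 to 2134 lower. With the clock covariate, 564 were higher and 652 lower in females, and 436 and 717 in controls at 40 against 20 weeks. The sex difference called 52 and 59 genes with DESeq2, 11 higher with voom and 17 lower with no filter, and voom called 3550 lower genes between the diets at 40 weeks. The cause of these shifts was not tested. Of the 149 named genes, 148 kept direction and call with RLE scaling, 147 with DESeq2, 116 with voom and 76 without animals 23 and 171.

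Signs turned in 11 named genes, of which Per3, itself part of the clock component, had been called. With the clock covariate Per3 was -0.54 (adjusted p = 0.0099), Fasn 0.25, Sqle 0.28 and Saa1 0.18. Without animals 411 and 413, Mogat1 was -0.079, Abcg5 0.011, Scd1 -0.17, Fgf21 -0.76, Saa1 0.14 and Gpc3 0.044. Without animals 23 and 171, Scd1 was -0.13, Cd79a 0.23 and Fgf21 -0.062. Without animals 22 and 23, Cd79a was 0.069, Fgf21 -0.057 and Saa1 0.030. With voom, Scd1 was -0.084, Cd79a 0.31 and Fgf21 -0.23. Over single omissions, Scd1 ran from -0.069 to 0.11, Spp1 from -0.38 to 0.040, Cd79a from -0.50 to 0.31, Fgf21 from -0.25 to 0.17 and Saa1 from -0.43 to 0.31. Depth limits genes under about 1 CPM, such as Aurkb and Timp1.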
